A study of Mus musculus with 4 samples.

Results

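The genes described here encode the subunits of the mitochondrial respiratory chain, complexes I to IV, and of the ATP synthase, often called complex V. They were chosen by symbol: names beginning with Ndufa, Ndufb, Ndufc, Ndufs, Ndufv, Sdha, Sdhb, Sdhc, Sdhd, Uqcr, Cox4i, Cox5, Cox6, Cox7, Cox8 or Atp5 in the RefSeq gene table. That rule gave 119 genes, from which 19 pseudogenes and 12 assembly factors of the Ndufaf and Sdhaf families were left out. Of the 88 protein-coding genes that remained, 85 had at least 1 probe, among 39429 probes on the array. Ndufb1, Ndufb4b and Ndufb4c had none under their own name and were not analysed here. Complex I held 38 of the measured genes, complex II 4, complex III 8, complex IV 18 and complex V 17. The study's question was the effect of Aff3 deficiency on gene expression in B cells; the Aff3 protein belongs to the AF4/FMR2 family of nuclear factors. Spleen B cells without surface CD43 came from Aff3+/- or from Aff3-/- mice, and all were grown for 3 days with LPS (10 ug/mL) plus the cytokine IL-4 (10 ng/mL), a mixture that drives B cells to divide and to switch antibody class. Total RNA of each sample was hybridised to a Cy3 single-colour Agilent array, with 2 arrays per genotype. The controls are heterozygous, so no sample with both Aff3 copies intact enters the comparison. The labels used here name no strain, sex, age or construction of the Aff3 allele, and Aff3 itself was not analysed here.

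As background, the respiratory chain passes electrons from NADH and succinate to oxygen along the inner mitochondrial membrane and pumps protons outwards as it does so. The ATP synthase lets the protons return and uses their flow to make ATP. Most subunits are encoded in the nucleus, a small set is encoded by mitochondrial DNA, and activated B cells raise their oxygen consumption as they grow. Several subunits exist as paralogues used in different tissues, such as muscle or testis forms. Nuclear respiratory factor 1 (NRF1), GABP of the ETS family and YY1 are textbook regulators of many of these genes.

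The 4 arrays had between 24970 and 25895 of 39429 probes well above background, no saturated gene spot, and a 75th percentile of 1274 to 1351 intensity units. Levels below are log2 signals relative to that percentile of each array, so a level of 0 equals the percentile, and differences are Aff3-/- minus Aff3+/- on the same log2 scale. All 8 B cell markers listed, among them Cd79b and Cd74, were well above background on all 4 arrays. The same held for 6 of 8 T cell markers, 4 of 8 myeloid markers and 1 of 4 natural killer cell markers. Detection alone therefore does not tell how pure the B cells were. The labels do not state that replicates came from separate mice, so a p-value here reflects the scatter of these samples alone, which may be technical. With 2 arrays against 2, an exact permutation test of a single gene cannot give a two-sided p below 0.33. Tests therefore come from limma across all 20651 features tested.

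Nearly all of these genes were detected. Of the 85 genes, 82 (96.5%) were well above background on all 4 arrays and were tested, against 68.5% tested of the 20144 genes with a RefSeq-named probe. The exceptions were Cox7b2, Cox8b and Cox8c, paralogues of complex IV that were above background on no array.

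The subunit genes differed little between Aff3-/- and Aff3+/- B cells. No subunit gene passed an adjusted p of 0.05 by limma with Benjamini-Hochberg adjustment, where the background over all 20651 features was 0.0%. At an unadjusted p under 0.05 there was 1 gene, Cox7a1, which is 1.22% of 82 against a background of 2.04%. The median difference was -0.02 over the 82 genes and -0.01 over all features. By complex it was -0.01 for I, -0.02 for II, -0.01 for III, -0.03 for IV and -0.04 for V. Differences smaller than 0.2 in size were found for 79 genes (96.3%), against 84.4% of all features, and smaller than 0.1 for 71 (86.6%), against 63.3%. The 95% interval of the difference lay within 0.5 of 0 on both sides for 72 genes (87.8%, against 55.6% of all features) and within 1 for 81, with Ndufa4l2 as the exception. Subunit genes also varied less between arrays of a genotype (median SD 0.0826, against 0.144 over all features). The background was not matched for signal level, so these shares do not single out the subunit genes as less affected by genotype. For most subunit genes these arrays thus bound the genotype difference, rather than showing that there is none. In RNA from whole cultures, fewer cells of a type and less RNA per cell cannot be told apart.

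**Figure D1:**
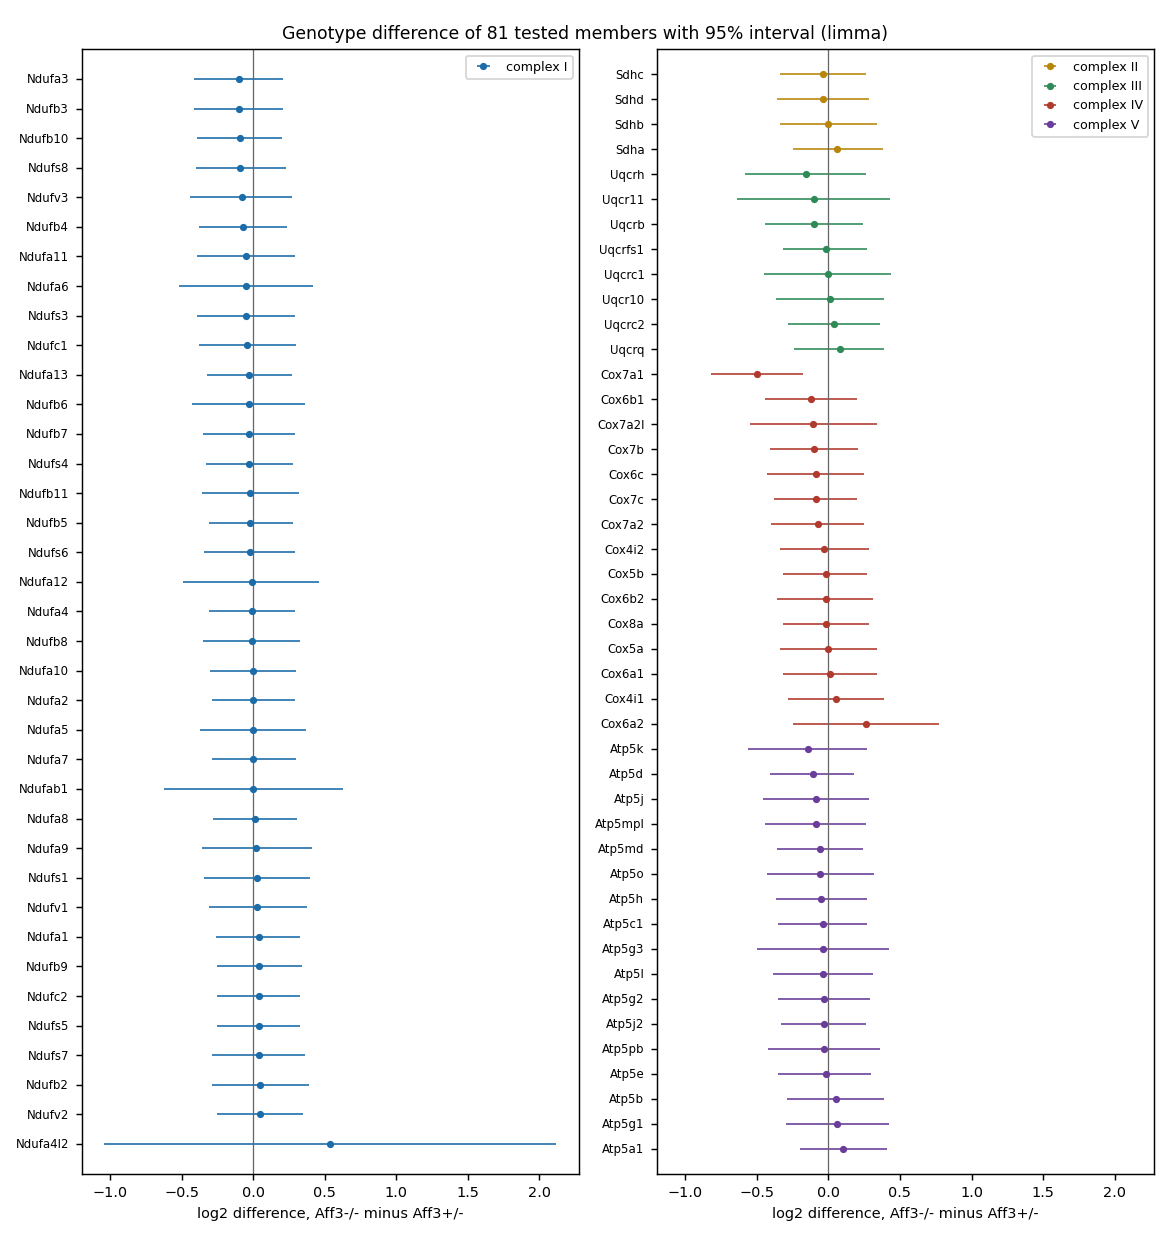
Log2 difference, Aff3-/- minus Aff3+/-, of 81 of the 82 tested subunit genes (points) with its 95% interval from limma (bars), with complex I on the left and complexes II to V on the right, ordered by difference within a complex. The interval excludes 0 only for Cox7a1, before any adjustment, and the interval of Ndufa4l2 is the widest.

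The split into lower and higher values in Aff3-/- cells was 55 to 27 (67.1% lower), against 54.3% lower of all features. Quantile normalization gave 53 lower and normexp 54. Centring each array on its median instead of its 75th percentile raised subunit genes and all features alike, to medians of 0.01 and 0.02, and 37 of 82 were then lower. In the authors' deposited log2 values 51 of the 62 genes held there were lower, with a median of -0.04 against -0.06 for all features. That table keeps most of the lower genes and fewer of the higher ones. In complex V the 14 genes held were all lower, while the scanner values gave 14 lower of 17. Neither the share nor the median is thus comparable with those over the 82 genes. Aff3-/- replicate 1 was the lowest of the 4 arrays for 42 of 82 genes, while it was lowest for 5413 of 20651 features. Without that array 35 of 82 genes were lower and the median difference was 0.02. The groups did not overlap for 13 genes (15.9%), 4 higher and 9 lower in Aff3-/-. The background share was 19.6% in either direction, 8.45% higher and 11.2% lower. With arrays scaled to their 75th percentile, the share among subunit genes was thus not above it.

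Complex I, NADH dehydrogenase, takes electrons from NADH and is the entry point that most carbon fuels use. Its 38 genes gave 22 lower and 16 higher values. The groups did not overlap for 6 of them (15.8%, against 19.6% of all features), 3 in each direction. The 31 supernumerary subunits, which build the scaffold around the catalytic core, had a median of -0.01. Ndufb3, a supernumerary subunit of the membrane arm, measured 3.44 and 3.50 in Aff3+/- and 3.32 and 3.43 in Aff3-/- replicates 1 and 2. Its groups just failed to overlap, and the difference was -0.10 (SE 0.12, adjusted p = 1.00, limma). Ndufa3 was at 4.79 and 4.75 against 4.62 and 4.73, a difference of -0.10 (SE 0.12). Ndufb10, also of the membrane arm, stood at 4.59 and 4.51 against 4.45 and 4.46, which is -0.09 (SE 0.11).

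Each of these 3 differences was smaller than its standard error in this fit. With the replicate number fitted as a block the SE was 0.07 to 0.08, below the size of each difference, and none passed the adjusted threshold. The 3 genes without overlap in the other direction, Ndufb9, Ndufc2 and Ndufs5, each differed by 0.04 (SE 0.11) and are named here after their values were seen. At the other end stood genes with no measurable difference. Ndufa10 had 2.40 and 2.48 against 2.41 and 2.46, a difference of 0.00 with a 95% interval of -0.30 to 0.30. Ndufa5, of the arm that reaches into the matrix, had 4.23 and 4.19 against 4.08 and 4.34, so that both extremes were Aff3-/- arrays and the difference was 0.00 (SE 0.14). Its second probe gave -0.11.

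By family, the 15 Ndufa genes had a median of 0.00, the 10 Ndufb genes -0.02 with 8 lower, the 8 Ndufs genes -0.02 and the 3 Ndufv genes 0.03. Ndufa4l2 stood apart by its spread. It is a paralogue of Ndufa4 known as a target of hypoxia-inducible factor, and its probe was dim. Its values were -5.46 and -6.59 in Aff3+/- and -4.80 and -6.18 in Aff3-/-, which is 28.8 and 14.0 against 47.2 and 17.8 intensity units. Replicate 1 was brighter than replicate 2 in both genotypes, and the groups overlapped. At each replicate number the Aff3-/- array was the brighter one. The difference of 0.54 (SE 0.60, 95% interval -1.04 to 2.12) was 0.26 after normexp background correction. Leaving out Aff3+/- replicate 1 or 2 gave 1.1 or -0.03, and leaving out Aff3-/- replicate 1 or 2 gave -0.15 or 1.23. Ndufa4, which many researchers now count with complex IV, was at 3.73 and 3.68 against 3.65 and 3.75, a difference of -0.01 (SE 0.12).

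Complex II, succinate dehydrogenase, is also an enzyme of the citric acid cycle, and all its subunits are nuclear. Sdha, the flavoprotein that oxidises succinate, measured 3.64 and 3.79 in Aff3+/- and 3.77 and 3.78 in Aff3-/-, a difference of 0.06 (SE 0.12). Sdhb, the iron-sulfur subunit, measured 4.73 and 4.82 against 4.68 and 4.87, a difference of 0.00 (SE 0.13). The membrane anchors Sdhc and Sdhd both gave -0.04 (SE 0.11 and 0.12). For all 4 genes the groups overlapped and the 95% interval stayed within 0.5 of 0.

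Complex III passes electrons from ubiquinol to cytochrome c. Its 8 genes varied more between arrays of the same genotype than those of the other complexes, with a median within-genotype SD of 0.126, against 0.0745 for complex I and 0.144 for all features. None was without overlap. Uqcrh, the acidic hinge protein beside cytochrome c1, had 5.70 and 5.49 in Aff3+/- and 5.57 and 5.29 in Aff3-/-. Replicate 2 was the lower one in both genotypes, and the difference was -0.16 (SE 0.16). Uqcr11 had 3.34 and 3.53 against 3.09 and 3.57, so the Aff3-/- arrays held both the lowest and the highest value, with a difference of -0.10 (SE 0.20). Uqcrb was at 4.34 and 4.35 against 4.14 and 4.35, also -0.10 (SE 0.13), which came from Aff3-/- replicate 1 alone. Uqcrq was at 5.66 and 5.73 against 5.71 and 5.84, a difference of 0.08 (SE 0.12). The core protein Uqcrc1 gave 0.00 (SE 0.17) and the small subunit Uqcr10 gave 0.01 (SE 0.15). The core protein Uqcrc2, named for its 10 spots per array, shows the measurement error within an array. The SD over its spots was 0.02 to 0.07, and the array means were 4.55 and 4.67 in Aff3+/- and 4.60 and 4.69 in Aff3-/-, so that replicates of a genotype differed by more than the genotypes did.

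Complex IV, cytochrome c oxidase, hands the electrons to oxygen, and its nuclear subunits surround a catalytic core made in the mitochondrion. Of its 15 tested genes 12 were lower and 3 higher. The groups did not overlap for 4 (26.7%, against 19.6% of all features in either direction). All 4 were lower, for which the background was 11.2%. These were Cox7a1, Cox6b1, Cox7b and Cox7c. Apart from Cox7a1 they differed by -0.12 to -0.09, with an SE of 0.11 or 0.12. Leaving out Aff3-/- replicate 1 gave 8 of the 15 lower, with a median of -0.03. Quantile normalization and normexp each gave 9 lower, and median centring, which raised all features alike, gave 8.

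Cox7a1, the form of subunit VIIa that predominates in heart and skeletal muscle, had the largest difference of complex IV. Its levels were -0.16 and -0.24 in Aff3+/- and -0.76 and -0.63 in Aff3-/- replicates 1 and 2, or 1140 and 1150 against 777 and 829 intensity units. Both Aff3-/- arrays lay below both Aff3+/- arrays. The difference was -0.50 (SE 0.12, 95% interval -0.82 to -0.18), a level 1.41-fold higher in Aff3+/-, with an unadjusted p of 0.0104 and an adjusted p of 1.00 by limma. It did not pass the adjusted threshold. The difference ranged from -0.56 to -0.44 when any 1 array was left out. The muscle markers Ckm, Actn2 and Mb were above background on no array, Myh7 differed by -0.21 (SE 0.11) and Tnnt2 by 0.49 (SE 0.16). Summed over the 5 muscle markers the linear signal was 0.15 and 0.178 times the 75th percentile in Aff3+/- and 0.206 and 0.194 in Aff3-/-; their part in the Cox7a1 value was not tested. Of the stroma and endothelium markers Cdh5 differed by -0.61 (SE 0.25), Acta2 by -0.36 (SE 0.12), Pecam1 by -0.16 (SE 0.17) and Col1a2 by 0.09 (SE 0.12), while Col1a1 was above background on no array. Their summed signal was 0.46 and 0.376 in Aff3+/- and 0.398 and 0.334 in Aff3-/-. B cell markers were lower for 7 of 8 (median -0.09) and plasma cell markers higher for 5 of 5 (median 0.11). None of these markers passed the adjusted threshold by limma, and their part was not tested either. The widely used form Cox7a2 was at 4.08 and 3.91 against 3.94 and 3.91, a difference of -0.07 (SE 0.12). Cox7a2l, known for its part in joining complexes III and IV, was at 6.29 and 6.06 against 6.23 and 5.91, a difference of -0.11 (SE 0.17).

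The promoters of this pair of paralogues are shown because Cox7a1 carried the largest difference of complex IV and Cox7a2 is its widely used counterpart. Both stretches are the 250 bases before the start site in RefSeq's GRCm38.p6 sequence, read 5′ to 3′ on the gene's strand. Capitals mark the only letters found of the 7 motifs searched. These are copies of the CCAAT box (CCAAT, here on the other strand as ATTGG) for Cox7a1 and an Sp1 family box (GGGCGG) for Cox7a2. The first lies at chr7:30183921-30184170 on the plus strand and the second at chr9:79759854-79760103 on the minus strand.
Cox7a1: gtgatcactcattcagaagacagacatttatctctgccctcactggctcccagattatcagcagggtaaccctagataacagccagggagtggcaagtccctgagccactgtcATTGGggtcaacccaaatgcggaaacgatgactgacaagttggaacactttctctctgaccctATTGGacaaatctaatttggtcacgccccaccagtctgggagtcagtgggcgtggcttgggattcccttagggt
Cox7a2: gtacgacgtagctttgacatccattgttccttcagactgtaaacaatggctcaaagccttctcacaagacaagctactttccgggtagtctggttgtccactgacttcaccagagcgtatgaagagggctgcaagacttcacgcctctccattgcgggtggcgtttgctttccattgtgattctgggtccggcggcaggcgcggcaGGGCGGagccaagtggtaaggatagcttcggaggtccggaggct
GC content was 53.0% for the first and 56.7% for the second, over the whole window of 300 bases that also takes in the 50 bases after the start.

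The other paralogues of complex IV gave no such difference. Cox6a2, the muscle form of subunit VIa, had 3.28 and 3.12 in Aff3+/- and 3.69 and 3.23 in Aff3-/-. Aff3-/- replicate 1 was the high array, the groups overlapped, and the difference of 0.26 (SE 0.19, 95% interval -0.25 to 0.77) was 0.03 without that array. This muscle form was well above background on all 4 arrays at 11700 to 17000 intensity units. Its widespread counterpart Cox6a1 was at 6.87 and 6.89 against 6.79 and 6.98, a difference of 0.01 (SE 0.13). Cox4i1, the general form of subunit IV, was at 6.12 and 6.31 against 6.28 and 6.26, a difference of 0.05 (SE 0.13). Cox4i2, the form known from lung, gave -0.03 (SE 0.12). Cox6b1 was at 2.08 and 1.96 against 1.95 and 1.85, without overlap by a narrow margin, and differed by -0.12 (SE 0.12). The testis form Cox6b2 gave -0.02 (SE 0.13). Cox7b was at 5.02 and 5.07 against 4.88 and 5.01, a difference of -0.10 (SE 0.12). Cox7c, named after its values were seen, gave -0.09 (SE 0.11), and Cox5a gave 0.00 (SE 0.13). Cox8a, the general form of subunit VIII, was at 6.53 and 6.49 against 6.46 and 6.53, a difference of -0.02 (SE 0.11).

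The 3 paralogues that were not well above background on any array are forms known from other tissues. Cox8b, found in muscle, read 1.70, 1.40, 1.48 and 1.96 intensity units (Aff3+/- replicates 1 and 2, then Aff3-/- replicates 1 and 2). Cox8c and Cox7b2, found in testis, read between 1.36 and 1.66 and between 1.35 and 1.54 intensity units. The lowest signal of any probe well above background was 1.37 to 1.71 units on these arrays, so no fold is given for these genes.

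**Figure D2:**
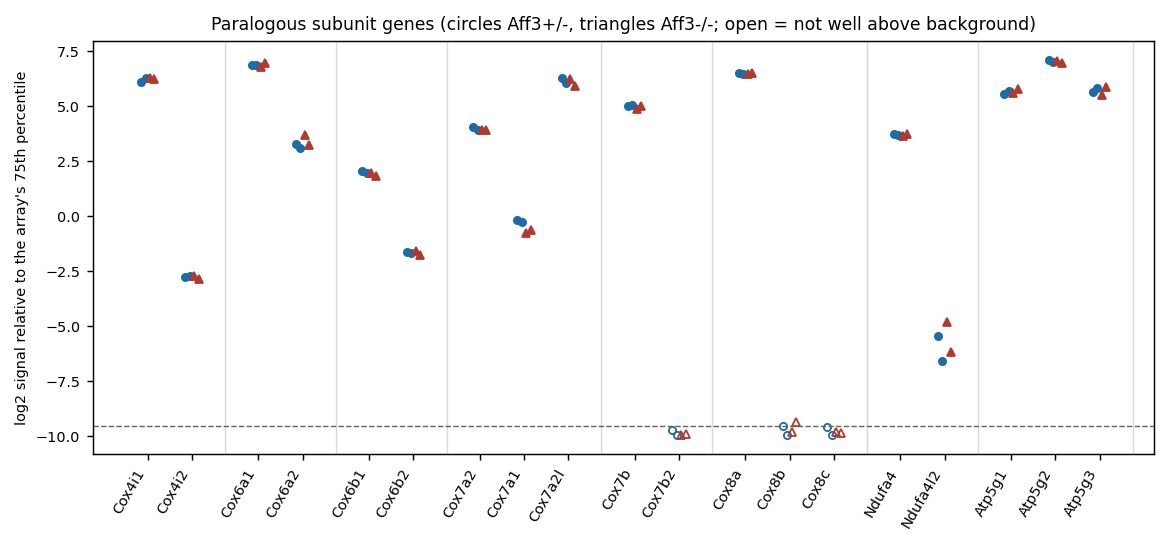
Log2 signal relative to the array's 75th percentile for paralogous subunit genes on each array, with circles for Aff3+/- and triangles for Aff3-/- and replicate 1 left of replicate 2. Open symbols mark probes not well above background, the dashed line is the highest among the arrays of the lowest signal of a probe well above background (-9.55), and heights of different genes come from different probes and are not comparable; the genotypes are apart for Cox7a1 and mixed or nearly touching for the others.

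Complex V, the ATP synthase, joins a catalytic head that makes ATP to a ring in the membrane that the protons turn. Of its 17 genes 14 were lower and 3 higher in Aff3-/-, with a median of -0.04. Without Aff3-/- replicate 1 the count was 8 of 17 lower and the median 0.01. Quantile normalization and normexp each gave 14 lower, and median centring gave 12. No difference was larger than 0.14 in size. In the head, Atp5a1, the alpha subunit, had 5.24 and 5.35 in Aff3+/- and 5.37 and 5.42 in Aff3-/-, higher without overlap, a difference of 0.10 (SE 0.12). Atp5d, the delta subunit of the central stalk, had 3.78 and 3.75 against 3.67 and 3.63. It was lower without overlap and differed by -0.11 (SE 0.11), with a range of -0.13 to -0.09 when any 1 array was left out. Atp5e, the epsilon subunit, had 5.56 and 5.42 against 5.51 and 5.43, a difference of -0.02 (SE 0.12). The 5 genes of the head, stalk subunits gamma to epsilon included, had a median of -0.02.

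The 12 genes of the peripheral stalk and the membrane part had a median of -0.04, with 11 lower and 1 higher. Atp5k, subunit e of the dimer contact, had 4.48 and 4.65 in Aff3+/- and 4.27 and 4.57 in Aff3-/-, a difference of -0.14 (SE 0.16). Leaving out Aff3-/- replicate 1 gave 0.01, and leaving out the other Aff3-/- array gave -0.30. Atp5mpl, a small membrane subunit, gave -0.09 (SE 0.13), and Atp5pb, subunit b of the peripheral stalk, gave -0.03 (SE 0.15). The c ring is encoded by 3 genes, Atp5g1, Atp5g2 and Atp5g3, whose mature proteins are the same. Atp5g1 had 5.55 and 5.72 against 5.61 and 5.79, a difference of 0.06 (SE 0.14). Atp5g2 had 7.13 and 7.0 against 7.08 and 6.98, a difference of -0.03 (SE 0.12). Atp5g3 had 5.65 and 5.82 against 5.51 and 5.88, a difference of -0.04 (SE 0.17). In each of the 3 the groups overlapped.

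Many subunit genes were low together on 1 array, Aff3-/- replicate 1. After each gene was centred on its mean over the 4 arrays, the median over the 82 genes was -0.01 and 0.02 on Aff3+/- replicates 1 and 2, and -0.05 and 0.02 on Aff3-/- replicates 1 and 2. Between replicates of the same genotype 42 genes were higher on replicate 2 in both genotypes and 23 were lower in both, against 7355 and 8213 of all 20651 features. The median within-genotype SD of the subunit genes was 0.0826, against 0.144 over all features.

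**Figure D3:**
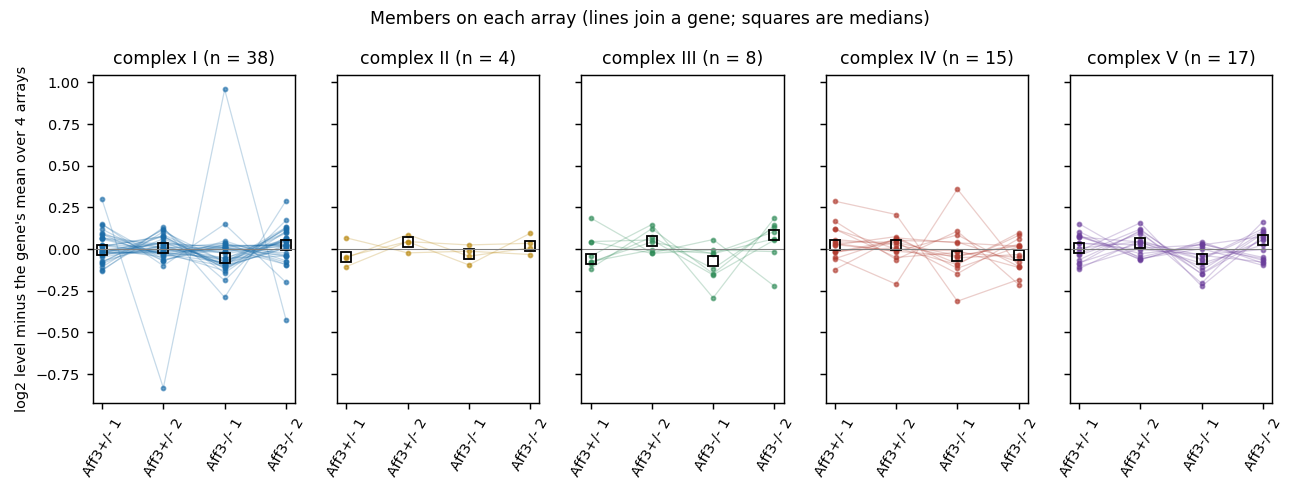
Log2 level of each tested subunit gene on each array minus the gene's mean over the 4 arrays, by complex; lines join the values of 1 gene and squares are medians over the complex. The medians on Aff3-/- replicate 1 lie below 0 in all 5 panels, but not always alone. In complex II Aff3+/- replicate 1 is lower (-0.05 against -0.03) and in III it is close (-0.06 against -0.07). In IV both Aff3-/- arrays are at -0.04. The 2 genotypes overlap, and the single gene with wide swings in complex I is Ndufa4l2.

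Different probes of a gene gave differences close to each other on the log2 scale. Beside the genotype differences, whose median size was 0.04 over the 82 genes, the gaps were not small. Of the 22 genes with several probes, the probes of 21 differed by at most 0.1, with a median gap of 0.04 and a largest gap of 0.11 for Ndufa5. The probes had opposite signs for 7 genes. They included Atp5l (-0.04 to 0.05 over 5 probes), Ndufb6 (-0.03 and 0.03), Atp5g2 (-0.03 and 0.03), Atp5pb (-0.03 and 0.02) and Sdhb (-0.04 and 0.00).

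Promoter letters, which the choice of members did not use, were searched next; each of the NRF1, ETS and YY1 motifs was in a minority of the subunit gene windows. RefSeq windows of 300 bases, 250 before the start and 50 after it, were found for 69 of the 85 genes, in 74 windows. The NRF1 letters were GCGC, any base, then TGCGC, searched on both strands, so that the other strand reads GCGCA, any base, then GCGC. They were found in 24.3% of the subunit gene windows, against 8.89% of the 13909 windows of tested genes and 4.60% of all 32851 windows. The YY1 letters AAGATGGCG were found in 9.46%, against 2.70% and 1.40%. The ETS letters CCGGAAG were found in 23.0%, against 15.9% and 8.86%. The Sp1 letters GGGCGG, in contrast, were found in 40.5% against 57.6% of windows of tested genes. For CCAAT the shares were 41.9% and 38.0%, for the E-box CACGTG 9.46% and 9.56%, and for the TATA letters TATAAA 12.2% and 8.58%. Median GC content was 57.5% for the subunit genes, 59.7% for tested genes and 52.7% for all windows. These shares are descriptions with no test, and a match is not a binding site. By complex, windows with the NRF1 letters made up 22.9% in I, 66.7% of only 3 windows in II, 20.0% in III, 7.69% in IV and 33.3% in V.

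The NRF1 stretches of 7 genes are printed to show the letters as they stand in genes of complexes I, II, IV and V. Each is read 5′ to 3′ on the gene's strand, with the 10 letters of the match in capitals and 12 bases on either side, from GRCm38.p6 before the start site. They lie at chr17:56717690-56717723 on the plus strand (Ndufa11), chr6:24527695-24527728 (Ndufa5), chr13:74350317-74350350 (Sdha), chr9:50603907-50603940 (Sdhd), chr5:115349099-115349132 (Cox6a1), chr15:102671068-102671101 (Atp5g2) and chr11:115420039-115420072 (Atp5h), the last 6 on the minus strand.
Ndufa11: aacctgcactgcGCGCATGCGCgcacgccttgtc
Ndufa5: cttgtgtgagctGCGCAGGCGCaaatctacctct
Sdha: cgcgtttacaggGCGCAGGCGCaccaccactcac
Sdhd: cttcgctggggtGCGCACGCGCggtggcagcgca
Cox6a1: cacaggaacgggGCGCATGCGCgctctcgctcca
Atp5g2: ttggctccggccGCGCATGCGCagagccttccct
Atp5h: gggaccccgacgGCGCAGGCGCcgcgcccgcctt
The median genotype difference was -0.04 over the 17 genes with the NRF1 letters, of which 12 were lower, and -0.02 over the 50 tested genes without them, of which 37 were lower. With the ETS letters it was -0.05 over 17 genes, of which 15 were lower, and without them -0.02 over 50, of which 34 were lower. For the YY1 letters it was -0.03 over 7 and -0.03 over 60. Genes with and without the letters were not tested against each other.

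**Figure D4:**
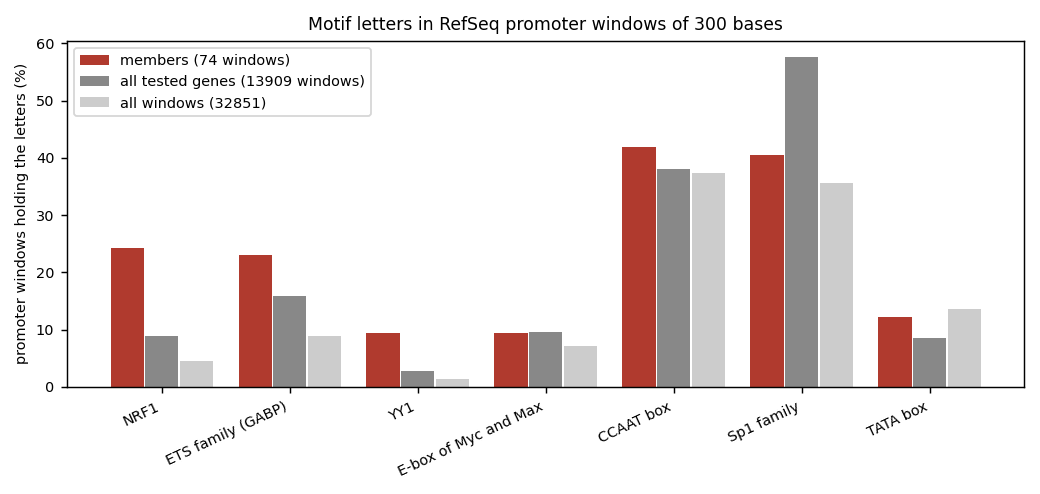
Percentage of RefSeq promoter windows of 300 bases that hold the letters of each motif on either strand, for subunit genes (74 windows), all tested genes (13909) and all windows (32851). The NRF1, ETS, YY1 and, by less, CCAAT bars of the subunit genes stand above both backgrounds, and the Sp1 bar stands below that of tested genes.

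Genes that build the complexes, feed them or regulate them were taken from lists written from pathway membership. By limma none passed the adjusted threshold in any list, and none had an unadjusted p under 0.05. Of the complex I assembly factors 10 of 17 tested were higher, with a median of 0.03. Dmac1 was at 1.99 and 2.00 in Aff3+/- and 1.87 and 1.90 in Aff3-/-, lower without overlap by -0.11 (SE 0.11), and Ndufaf3 gave -0.14 (SE 0.13). The 4 complex II assembly factors had a median of -0.04, with Sdhaf4 at -0.12 (SE 0.18) and Sdhaf3 at 0.07 (SE 0.13). The 5 tested complex III assembly factors had a median of 0.06. Ttc19 gave 0.18 (SE 0.15) and the chaperone Bcs1l, which installs the Rieske protein, gave 0.08 (SE 0.12). Among 21 complex IV assembly factors 11 were higher, with a median of 0.01. The copper chaperones Sco1 and Sco2 gave 0.27 (SE 0.22) and 0.16 (SE 0.13), and the groups overlapped for both. The 4 complex V assembly factors had a median of 0.09, but 0.23 when Aff3-/- replicate 1 was left out and -0.05 when the other Aff3-/- array was. Atpaf1, a chaperone of the catalytic head, was dim, at -6.55 and -7.32 against -6.35 and -6.55, a difference of 0.48 (SE 0.29) that ranged from 0.10 to 0.87 when any 1 array was left out. Tmem70 gave 0.12 (SE 0.14).

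The citric acid cycle and pyruvate dehydrogenase list had the most genes without overlap among these lists, 6 of 20 tested (30.0%, against 19.6% of all features in either direction). All 6 were higher in Aff3-/-, for which the background was 8.45%. Apart from Dlst and Dld they differed by 0.04 to 0.14, with an SE of 0.11 or 0.12. Dlst, the succinyltransferase of the 2-oxoglutarate dehydrogenase complex, was at 2.24 and 2.55 in Aff3+/- and 2.75 and 2.74 in Aff3-/-. Its groups did not overlap, and the difference of 0.35 (SE 0.15) had an unadjusted p of 0.072 and an adjusted p of 1.00 by limma. Leaving out Aff3+/- replicate 1 gave 0.19, and leaving out the other Aff3+/- array gave 0.50. Dld, the lipoamide dehydrogenase that this complex shares with pyruvate dehydrogenase, was at 1.80 and 1.93 against 2.04 and 2.17, a difference of 0.24 (SE 0.12). The median of the list was 0.01. Carriers and porins had a median of 0.00 over 17 genes. Vdac3, a porin of the outer membrane, gave 0.16 (SE 0.11) and the uncoupling protein Ucp2 gave -0.17 (SE 0.13). Cytochrome c, cytochrome c1 and coenzyme Q synthesis genes had a median of 0.02 over 15, with Coq8b at -0.09 (SE 0.11) and Coq8a at -0.07 (SE 0.13). The 20 regulators had a median of 0.02. Tfb1m, a methyltransferase of the mitochondrial ribosome, gave 0.12 (SE 0.12), and Ppargc1a, the coactivator PGC-1alpha, gave -0.24 (SE 0.31) from values of -3.23 and -3.89 against -3.51 and -4.10. The subunits encoded by mitochondrial DNA were not analysed here.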

How the data were processed

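Per the submitters' processing notes, Agilent Feature Extraction 10.7.1.1 produced the deposited scanner files, which hold intensity values for 44397 spots on each of 4 arrays, per the file headers. The authors also deposited a table of log2 values for 25372 probes, centred on each probe's median and running in the direction of the scanner values. Its column medians were 0.13, -0.04, -0.03 and 0.02 (Aff3+/- 1, Aff3-/- 1, Aff3+/- 2, Aff3-/- 2). For Cox7a1 and Uqcrh it gave the genotype differences of the 75th percentile scaling, -0.50 and -0.16. Median centring gave -0.47 and -0.13. The deposited values are thus not an independent scaling. Control and outlier spots were left out, log2 processed signals were taken relative to the array's 75th percentile, and spots of a probe were averaged. A probe entered the tests when both arrays of either genotype were well above background (25136 probes, 20651 features), with the brightest probe for each gene. Symbols came from RefSeq's GRCm38.p6 table (26581 probes by accession, 6 by synonym, 12842 unnamed). Tests used R 4.3.3 and limma 3.58.1 (lmFit, eBayes, two-sided, Benjamini-Hochberg over all features, threshold 0.05) and were tested on simulated data. The normexp alternative used the median signal, since a mean signal was not used here. Members and lists were chosen with earlier results of these data known. Genes were named by rule: for each complex the 4 of smallest p and the 2 of smallest difference, all of complex II, paralogues, members not above background, up to 6 whose probes differ in sign, and 2 for each list; others are marked or counted in the text. Some genes are not reported here by name. No arrays were identical.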

Additional observations from a re-analysis of the deposited data

How the results depend on the processing

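No subunit gene passed the adjusted threshold by limma under any alternative run: normexp, quantile or median scaling, the deposited values, no filter, a stricter filter, the mean of a gene's probes, the replicate block and leaving out each array. With arrays centred on their medians the complex V median was -0.01. In the deposited values 7 of 62 genes were without overlap, and under the other settings 11 to 18. The deposited values hold fewer of the higher genes and gave the main differences for Cox7a1 and Uqcrh, so they are no separate check. Leaving out 1 array moved the medians from -0.05 to 0.04 for complex I, -0.05 to 0.04 for II, -0.07 to 0.11 for III, -0.06 to -0.03 for IV and -0.06 to 0.01 for V. The highest values for I, III, IV and V came without Aff3-/- replicate 1, and that for II without Aff3+/- replicate 2. Of 40 named subunit genes with a fit, 11 had the same sign under every alternative. When 1 array was left out, the list medians ran from -0.07 to 0.07 (complex I assembly), -0.16 to 0.10 (II), 0.04 to 0.17 (III), -0.03 to 0.02 (IV), -0.05 to 0.23 (V), -0.11 to 0.09 (cytochrome c and coenzyme Q), -0.02 to 0.10 (citric acid cycle), -0.04 to 0.07 (carriers) and 0.01 to 0.05 (regulators). With the replicate number as a block 0 subunit genes were called and 2 had an unadjusted p under 0.05 (smallest adjusted p 0.624), Ndufa4l2 with 0.0079 (difference 0.54, SE 0.10) and Cox7a1, and over all features 0 were called and 1457 had p under 0.05, against 422 without it; deviations of same-numbered arrays correlated at 0.88 over the 82 genes and 0.56 over all 25136 tested probes. No block for slide or scan was fitted, since the arrays share 1 scan. The 2 arrays per genotype limit the precision, and signals near background have only a bound.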
